A study of Mus musculus with 12 samples.

Results

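Melanocyte genes were followed in the spleens of 12 albino mice through 5 genes: Tyrp1, Dct, Pmel, Mlana and Tyr. The genes were chosen by their signal in wild type mice at 1 month, and every probe set whose annotation gave 1 gene symbol, and that symbol 1 of these 5, was taken. These are 5 of 18193 genes with such a probe set, and 9 of the 45037 probe sets on the array without controls: 3 for Tyrp1, 3 for Tyr and 1 each for Dct, Pmel and Mlana. Spleen RNA was hybridised to Affymetrix arrays, 1 mouse per array, in 4 groups of 3 mice, all on the BALB/c background: Il1rn-deficient (ko) and wild type (wt) at 1 month of age, and ko and wt at 4 months. The product of Il1rn blocks the receptor of interleukin-1, and the study's title asks for arthritis genes of a particular phase of disease. The labels give no sex, housing or litter, and they name the whole spleen with no separation of cells.

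The 5 genes were chosen with their levels in wt mice at 1 month already known, and with 1 Tyrp1 probe set already known to be lower in ko at that age. Comparisons that use those arrays are therefore given for the 5 genes as descriptions: no p is given, and where the number of probe sets called is printed, nothing is read from it. The comparison of ko with wt at 4 months takes its group means from other arrays, as does that of the ages in ko. Both are given with their p. Their probe sets entered the test mainly through signals of wt at 1 month, so few calls were possible and these p are descriptions too. Dct and Tyrp1 1415861_at also needed ko replicate 3 at 4 months to enter, an array that both comparisons use. The standard errors of both come from a fit over all 12 arrays, so they also hold the spread of the wt arrays at 1 month. In whole spleen, fewer cells of a type and less RNA per cell cannot be told apart.

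Melanocytes are pigment cells of neural crest origin that make melanin in a dedicated organelle, the melanosome. Tyrosinase, the product of Tyr, starts the synthesis by oxidising tyrosine, and the products of Dct and Tyrp1 act further down the same path. Pmel forms the protein fibrils on which melanin is laid down, and Mlana is a melanosomal membrane protein. Inbred BALB/c mice are albino because of a missense change in Tyr, and they also carry the brown allele of Tyrp1. Albino melanocytes are present and express these genes but make no melanin, so pigment cannot be used to see them. In pigmented mice, melanocytes are known in the spleen as well as in skin, eye, inner ear and heart.

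Transcription of Tyr, Tyrp1 and Dct in melanocytes is driven by Mitf, a transcription factor that binds short elements around a CATGTG core. The promoter windows of the 3 enzyme genes are shown. Tyrp1 and Dct were high in the same spleens, while of the Tyr probe sets only 1456095_at had these as its highest arrays (145 and 69.5). Each window runs from 250 bases before to 50 bases after the annotated start, from RefSeq on the mouse build GRCm38.p6. Of the 5 genes, Tyrp1, Dct and Tyr were matched by symbol. The reference is that of C57BL/6J mice, and no BALB/c sequence was read. Capitals mark a shared run of 10 bases, GTCATGTGCT, in windows written 5′ to 3′ along the gene's strand.
Tyrp1, chr4:80833963-80834262, plus strand: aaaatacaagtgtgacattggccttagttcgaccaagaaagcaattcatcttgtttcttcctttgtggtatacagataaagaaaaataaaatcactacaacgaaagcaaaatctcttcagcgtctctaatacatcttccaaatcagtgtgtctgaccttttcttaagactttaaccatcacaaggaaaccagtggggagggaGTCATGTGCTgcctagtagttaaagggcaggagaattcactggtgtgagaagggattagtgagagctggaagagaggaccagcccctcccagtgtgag
Dct, chr14:118052197-118052496, minus strand: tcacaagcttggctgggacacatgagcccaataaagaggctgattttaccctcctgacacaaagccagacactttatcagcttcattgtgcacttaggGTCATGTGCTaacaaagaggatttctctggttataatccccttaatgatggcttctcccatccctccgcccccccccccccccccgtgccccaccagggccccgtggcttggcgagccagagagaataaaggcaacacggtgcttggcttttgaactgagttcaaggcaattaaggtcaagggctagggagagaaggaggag
Tyr, chr7:87493463-87493762, minus strand: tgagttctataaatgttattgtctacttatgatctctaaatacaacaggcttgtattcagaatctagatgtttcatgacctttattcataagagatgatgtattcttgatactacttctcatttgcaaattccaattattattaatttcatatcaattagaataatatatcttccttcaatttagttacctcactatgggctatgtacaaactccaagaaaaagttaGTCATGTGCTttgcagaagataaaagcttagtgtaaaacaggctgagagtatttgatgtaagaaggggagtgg

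The run is the longest around the core that the 3 windows share, so that all 3 hold it by construction. It began 48 bases before the annotated start in Tyrp1, 152 in Dct and 23 in Tyr, on the gene's own strand in each. Searched on both strands, GTCATGTGCT occurred in 61 of 32851 promoter windows of the same length, or 0.186%, which belong to 27025 genes. The longest run around the core shared by Tyr and Tyrp1 alone was AGTCATGTGCT, known as the M-box, and it occurred in 7 windows (0.0213%), theirs included. The core CATGTG, which lies inside both longer forms, occurred in 14.2% of windows. A match is a description of these letters and does not show that a factor binds there.

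**Figure D1:**
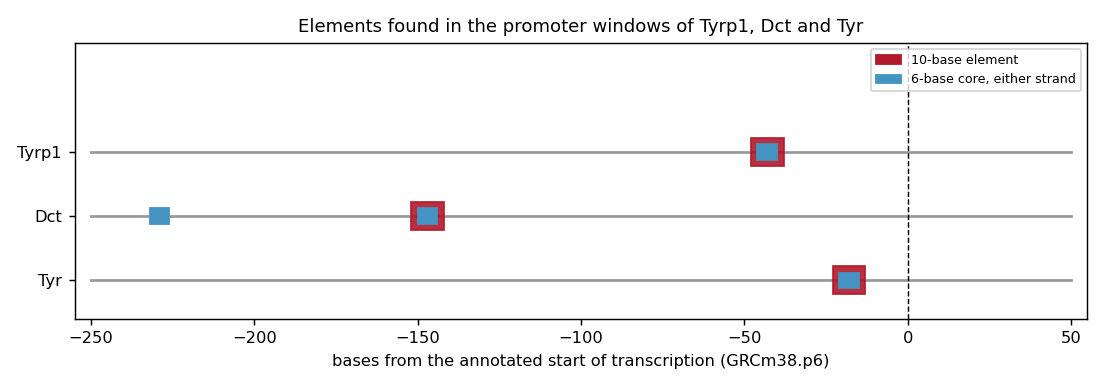
Positions of the 10-base element (red) and of the 6-base core on either strand (blue) in the promoter windows of Tyrp1, Dct and Tyr, in bases from the annotated start (dashed line). The element starts 48, 152 and 23 bases before the start, and Dct holds a further core on the other strand, 232 bases before it.

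Values below are MAS5 signals scaled to a 2% trimmed mean of 500 in each array. A signal of 100, reached by 52.1% to 59.2% of the probe sets on an array, was taken as a low bound, since detection calls were not used here. The median signal of an array was 113 to 148. The highest deposited signal was 33427 to 37921 in 6 arrays and 51247 to 68987 in the other 6. The arrays of wt replicates 2 and 3 at 1 month, in which the melanocyte genes stood out, fell in different sets of these: the highest signal was 62616 for replicate 2 and 35000 for replicate 3. All 3 ko arrays at 1 month had a highest signal of 37921 or less, against 68987 and 62616 in wt replicates 1 and 2 of that age. This split of the arrays, the array set, was thus partly tied to genotype at 1 month. For wt replicates 2 and 3 at 1 month the ratios of 3' to 5' signal were 0.734 and 0.673 for Gapdh, and 1.20 and 1.17 for actin. These were within the range of the other arrays (0.649 to 0.9995 and 1.07 to 1.37).

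Dct, which encodes dopachrome tautomerase, had the widest range. Its signal at 1 month was 81.4, 51.2 and 43.0 in ko replicates 1 to 3, against 6.17, 3099 and 1461 in wt replicates 1 to 3. At 4 months it was 86.2, 52.3 and 253 in ko, against 60.7, 36.8 and 52.5 in wt. Replicates 2 and 3 of wt at 1 month were thus far above the other 10 arrays, while replicate 1 of the same group was the lowest of all 12. Among the other 10 arrays, the highest was ko replicate 3 at 4 months, and their median was 52.4. The mean at 1 month was 58.5 ± 20.3 in ko and 1522 ± 1547 in wt (SD, n = 3 each), so in wt the spread between mice was as large as the mean.

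Tyrp1, a melanosomal enzyme of the same family as tyrosinase, showed the same 2 mice in all of its probe sets. For 1415861_at the signal at 1 month was 23.9, 8.02 and 63.1 in ko, against 75.4, 1951 and 931 in wt, and at 4 months 55.5, 34.7 and 132 in ko, against 84.0, 44.2 and 6.14 in wt. For 1415862_at it was 29.6, 44.6 and 28.6 in ko and 46.1, 1750 and 825 in wt at 1 month, and 90.0, 26.4 and 76.8 in ko and 12.1, 18.3 and 2.97 in wt at 4 months. At 1 month both probe sets had all 3 ko mice under all 3 wt mice, but wt replicate 1 exceeded the highest ko array by little. The remaining probe set, 1439409_x_at, is of a design that may also bind related transcripts. It had 3.17, 9.25 and 14.8 in ko and 132, 1891 and 594 in wt at 1 month, and 11.3, 3.85 and 93.9 in ko and 27.7, 13.5 and 2.24 in wt at 4 months. Here wt replicate 1 at 1 month also stood above the ko arrays, though with a signal near 100.

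Pmel, the fibril protein of the melanosome, had 74.8, 81.6 and 118 in ko and 101, 1129 and 872 in wt at 1 month. At 4 months it had 16.7, 50.2 and 87.9 in ko and 92.8, 65.8 and 49.9 in wt. The same 2 wt mice were high, and wt replicate 1 at 1 month lay among the ko arrays. Mlana was low throughout, with 5.04, 27.0 and 5.42 in ko against 11.1, 105 and 50.1 in wt at 1 month, and 10.8, 29.1 and 35.8 in ko against 24.8, 4.18 and 12.9 in wt at 4 months. Its highest arrays were again wt replicates 2 and 3, but only 1 of the 12 arrays reached 100.

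Tyr was measured by 3 probe sets that did not all behave alike. For 1417717_a_at the signal at 1 month was 39.2, 63.0 and 26.2 in ko, against 137, 356 and 136 in wt, and at 4 months 76.0, 29.7 and 62.5 in ko, against 59.5, 12.7 and 23.9 in wt. Here wt replicate 2 was high, and wt replicates 1 and 3 were level with each other. For 1456095_at it was 2.41, 26.2 and 1.72 in ko and 19.0, 145 and 69.5 in wt at 1 month, and 2.49 to 4.72 in ko and 1.92 to 4.66 in wt at 4 months. The 2 mice that were high in Dct led this probe set as well. By contrast, 1448821_at had 84.4, 95.2 and 81.2 in ko and 134, 92.3 and 90.6 in wt at 1 month, and 91.9, 37.7 and 53.6 in ko and 30.4, 50.7 and 11.7 in wt at 4 months, with wt replicate 1 at 1 month the highest. The array does not read the albino allele, so these signals say nothing of the enzyme's activity.

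**Figure D2:**
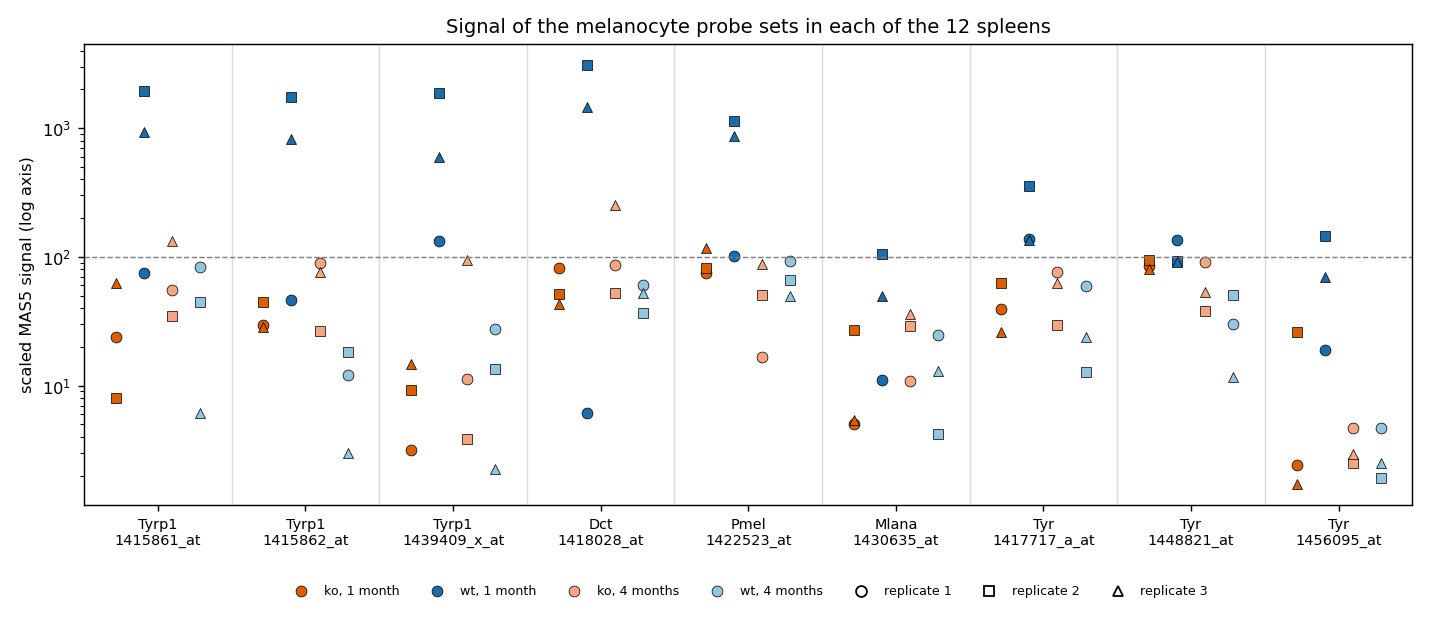
Scaled MAS5 signal (log axis) of the 9 probe sets in each spleen, with colour for the group, shape for the replicate number, and a dashed line at 100. The squares and triangles of wt at 1 month (replicates 2 and 3) stand above the other arrays in 7 of the 9 probe sets, with Dct at 3099 and 1461.

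Across probe sets, wt replicates 2 and 3 at 1 month were the 2 highest of the 12 arrays in 7 of 9. The exceptions were 2 Tyr probe sets, 1417717_a_at, where wt replicate 1 at 1 month (137) edged past replicate 3 (136), and 1448821_at. Replicate 2 exceeded replicate 3 in all 9, by a ratio of 1.02 for Tyr 1448821_at to 3.18 for Tyrp1 1439409_x_at, with a median of 2.10. For Dct the ratio was 2.12, for Tyrp1 1415861_at 2.10, for Tyrp1 1415862_at 2.12, for Mlana 2.09 and for Tyr 1456095_at 2.09, while for Pmel it was 1.30. The ratios of Dct and of 2 of the 3 Tyrp1 probe sets were nearly the same, that of the other Tyrp1 probe set was higher, and that of Pmel was lower. No error can be given for a ratio of 2 mice. In 7 of the 12 arrays all 9 probe sets were under 100, and the highest signal outside those 2 mice was the 253 of Dct in ko replicate 3 at 4 months. That mouse was also the highest of the other 10 arrays for Tyrp1 1415861_at (132) and Mlana (35.8).

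Of the 9 probe sets, 5 passed the filter used for testing, which asks that 3 or more arrays reach 100: 2 of Tyrp1, and those of Dct, Pmel and Tyr 1417717_a_at. The other 4, 1 of Tyrp1, 2 of Tyr and Mlana, did not. Tyrp1 1439409_x_at, Pmel and Tyr 1417717_a_at reached 100 in all 3 wt arrays at 1 month. Tyrp1 1415861_at and Dct did so in wt replicates 2 and 3 only, and passed through ko replicate 3 at 4 months (132 and 253). The only other signal of these 5 to reach 100 outside wt at 1 month was that of Pmel in 1 array (118). Differences are given on the scale of log2(scaled signal + 32), which understates changes of low signals, with standard errors (SE) from limma, a linear model fitted over all 12 arrays.

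At 1 month the difference of ko minus wt was -3.30 (SE 0.76), -2.90 (SE 0.75) and -3.83 (SE 0.67) for the 3 probe sets of Tyrp1. It was -2.66 (SE 1.04) for Dct, -2.09 (SE 0.58) for Pmel and -0.86 (SE 0.37) for Mlana. For Tyr it was -1.60 (SE 0.41) for 1417717_a_at, -0.20 (SE 0.32) for 1448821_at and -1.25 (SE 0.36) for 1456095_at. In 4 of the 9 probe sets, the 3 of Tyrp1 and Tyr 1417717_a_at, every ko array lay below every wt array, as was so in 10.4% of all 45037 probe sets. Of the 5 tested, 1 (Tyrp1 1439409_x_at) passed a Benjamini-Hochberg adjusted p under 0.05 in limma, as did 0.444% of all probe sets tested. With the array set as a block, Tyrp1 1439409_x_at did not pass. The genes were chosen with this contrast in view, so nothing is read from these counts.

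How far the 1-month difference rested on 2 mice was measured by leaving arrays out. Without wt replicates 2 and 3, a setting chosen after the data were seen that leaves 1 wt mouse, the difference was -0.85 and -0.25 for Tyrp1 1415861_at and 1415862_at, and -0.12 for Pmel. For Mlana it was 0.01, and for Dct it turned to 1.22. For Tyr 1448821_at and 1456095_at it was -0.49 and -0.32. Tyrp1 1439409_x_at stayed at -2.01 and Tyr 1417717_a_at at -1.20, both with wt replicate 1 above the ko arrays. Without wt replicate 1, the only wt mouse of that age low in Dct, the Dct difference was -4.60, and the difference of Tyrp1 1415861_at was -4.53. Without replicate 2 alone it was -1.42 for Dct, and without replicate 3 alone it was -1.96.

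At 4 months, 0 of the 5 tested probe sets passed in limma, beside 2.3% of all probe sets tested, and 0 had an unadjusted p under 0.05. With nearly all of their signals at that age under 100, few calls were possible, and nothing is read from this count. The difference of ko minus wt was 0.50 (SE 0.76) and 0.36 (SE 0.67) for Tyrp1 1415861_at and 1439409_x_at, 0.80 (SE 1.04) for Dct, -0.35 (SE 0.58) for Pmel and 0.49 (SE 0.41) for Tyr 1417717_a_at. The limma adjusted p lay between 0.607 and 0.846. Fitted on the 4-month groups alone, the limma adjusted p was 0.394 for Dct and 0.633 to 0.816 for the other 4. A p that misses the threshold does not show that the groups were alike. Without ko replicate 3, the mouse with the highest Dct at that age, the Dct difference was 0.29. In Tyrp1 1415862_at, which was not tested, every ko array lay above every wt array at 4 months, as was so in 8.37% of all probe sets, with all 6 signals under 100.

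**Figure D3:**
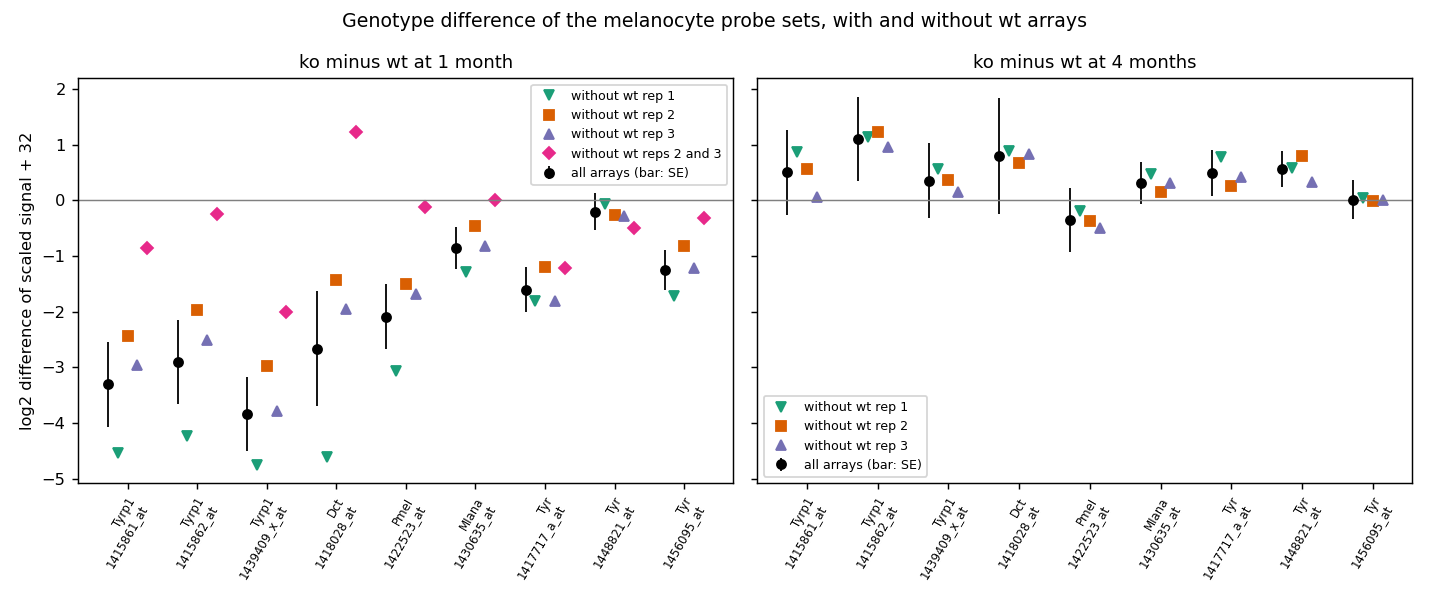
Difference of ko minus wt in log2(scaled signal + 32) for the 9 probe sets at 1 month (left) and 4 months (right), with all arrays (black, bar: SE) and without single wt arrays. At 1 month the Dct difference runs from -4.60 without wt replicate 1 to 1.22 without wt replicates 2 and 3, while at 4 months all values with all arrays lie between -0.35 and 1.11.

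By age, all 9 probe sets were lower in wt mice at 4 months than in wt mice at 1 month, by log2 differences of -0.80 for Mlana to -3.68 for Tyrp1 1439409_x_at. Of the 5 tested, 4 passed in limma, as did 21.4% of all probe sets tested. Because the 1-month wt arrays are those on which the genes were chosen, this too is a description. Without wt replicates 2 and 3 at 1 month the difference was -0.63 for Tyrp1 1415861_at, -0.41 for Pmel and 1.09 for Dct. In ko mice, 0 of the 5 tested probe sets passed between 4 months and 1 month, where 22.9% of all probe sets did, and 0 had an unadjusted p under 0.05. Their ko signals were nearly all under 100, so this count too is not read against that share. Their differences were between -0.64 (SE 0.58) for Pmel and 0.72 (SE 0.76) for Tyrp1 1415861_at, with limma adjusted p between 0.469 and 0.742. The genotype effect at 4 months minus that at 1 month was positive for all 9, from 0.77 to 4.19, and 0 of the 5 tested passed, beside 0.0481% of all. This contrast holds the wt arrays at 1 month, so its sign follows from how the genes were chosen, and nothing is read from the count.

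The genes whose profile over the 12 arrays was most like Dct or Tyrp1 were sought among 26294 probe sets with 1 symbol and a signal of at least 100 in at least 1 array. The measure was the root-mean-square difference between log2 profiles, each centred on its own mean. A flat profile would lie 1.83 from Dct and 1.67 from Tyrp1 1415861_at, and both are dominated by the 2 high mice. The 5 nearest genes to Dct were Tyrp1 (0.64), Pmel (0.94), Gpnmb (1.10), Syt4 (1.21) and Tyr (1.28). The 5 nearest to Tyrp1 were Pmel (0.70), Dct (0.74), Fank1 (1.09), Tyr (1.10) and Ptgds (1.15). The melanocyte genes were chosen by signals that dominate these profiles, so their likeness to each other restates the choice.

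Of the 4 others, Gpnmb encodes a glycoprotein of melanosomes that macrophages also make. Its probe set 1448303_at had 54.0, 68.4 and 29.0 in ko and 8.57, 261 and 186 in wt at 1 month, and 8.63, 7.50 and 72.6 in ko and 17.5, 23.6 and 46.8 in wt at 4 months. As with Dct, wt replicate 1 at 1 month was among the lowest arrays. A further Gpnmb probe set, 1439345_at, stayed at or below 39.1 in every array and did not show this. Ptgds, which encodes a prostaglandin D synthase, had 25.7, 100 and 78.1 in ko and 101, 234 and 248 in wt at 1 month. Syt4, a synaptotagmin of vesicle traffic, had 1.35 to 20.0 in ko and 11.4, 141 and 105 in wt at that age. Fank1 had 16.5 to 22.6 in ko and 49.3, 183 and 95.2 in wt. At 4 months these 3 genes were at or below 70.7 in every array.

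**Figure D4:**
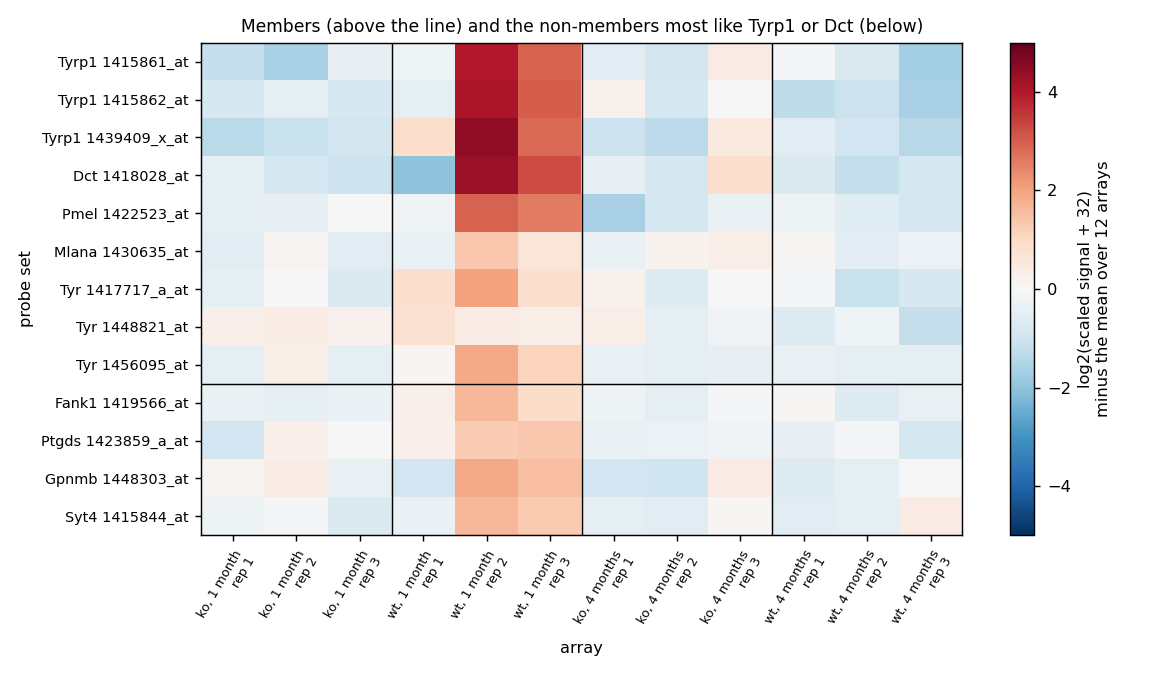
Colour shows log2(scaled signal + 32) minus its mean over the 12 arrays, for the 9 melanocyte probe sets (above the line) and the 4 non-members most like Tyrp1 or Dct (below), with arrays in columns by group. The columns of wt replicates 2 and 3 at 1 month are red in nearly every line, and the column of wt replicate 1 is pale or blue for Dct, Pmel, Gpnmb and Syt4.

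Other pigment cell genes were taken from 2 lists. Of 12 regulators of pigment cells, all were measured, by 37 probe sets, of which 27 were tested. In limma, 0 were called at 1 month and 0 at 4 months, and the median difference of ko minus wt was -0.15 and -0.08, beside -0.04 and -0.01 over all probe sets tested. Mitf, the regulator of the melanocyte programme, is also made by macrophages and mast cells. Its probe set 1455214_at had 189, 147 and 235 in ko and 237, 503 and 366 in wt at 1 month, and 380, 488 and 469 in ko and 409, 426 and 373 in wt at 4 months. This probe set was thus as high at 4 months, where Dct was low. The other tested Mitf probe set, 1422025_at, had 37.6, 66.9 and 57.6 in ko and 146, 181 and 102 in wt at 1 month, and 45.1 to 135 in ko and at most 160 in wt at 4 months. Pax3, a regulator of Mitf, had 14.8, 46.5 and 31.9 in ko and 146, 157 and 80.0 in wt at 1 month for 1420389_at. In both probe sets all ko arrays lay under all wt arrays at 1 month, and wt replicate 1 was among the high ones. A further Pax3 probe set, 1441743_at, had 13.3, 122 and 36.9 in wt replicates 1 to 3 at 1 month. It was at or below 36.0 in the other arrays and did not pass the filter. Its highest arrays were thus those of the 2 mice high in Dct, replicate 3 by little. The remaining Pax3 probe set, 1430335_a_at, stayed at or below 25.2 and did not show this. Sox10, a factor of neural crest cells that acts with Mitf, had 21.8, 16.0 and 17.0 in ko and 125, 144 and 123 in wt at 1 month for 1451689_a_at, so that all 3 wt mice were alike there, including replicate 1. Its probe set 1424985_a_at did not separate the groups, with 199 to 244 in ko and 176 to 276 in wt. Every ko array lay below every wt array at 1 month in 10.4% of all 45037 probe sets. The Mitf, Pax3 and Sox10 probe sets placed so were named after their values were seen, and nothing is read from their separation. Mc1r, the melanocortin receptor of melanocytes, was at or below 72.7 in every array.

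Of 27 melanosome components and transport genes, 25 were measured, by 55 probe sets, of which 33 were tested. None was called at 1 month (0 higher, 0 lower), and 1 of the 33 was called lower in ko at 4 months, a share near the 2.3% of all probe sets. This was Atp7a, a copper transporter that supplies tyrosinase among other enzymes, with 121, 125 and 124 in ko and 278, 249 and 286 in wt, a difference of -0.96 (SE 0.21, limma adjusted p = 0.0254). The brighter Atp7a probe set, 1436921_at, overlapped between the groups, with 1058 to 1160 in ko and 1097 to 1458 in wt. The median difference of the list was -0.12 at 1 month and 0.01 at 4 months. Gpnmb was the only gene of the 2 lists whose highest array exceeded its median array at least 4-fold with a signal of at least 200, by 6.90-fold in wt replicate 2 at 1 month. Gpr143 was at or below 42.8, and Oca2 was between 51.9 and 135. Gpr143 and Oca2 did not pick out the 2 wt mice. Slc45a2, a melanosomal transporter, was at 30.0 to 173 for its brighter probe set, highest in wt replicate 1 at 1 month.

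Marker lists of other cells were summed over the brightest probe set of each gene, and their part in the melanocyte signal was not tested. The 5 melanocyte genes summed to 224 to 256 in ko and 331, 6640 and 3450 in wt replicates 1 to 3 at 1 month, and to 196 to 571 in ko and 145 to 322 in wt at 4 months. For 9 measured genes of Schwann cells and glia, which share the neural crest origin, the sum was 1925 to 2800 in ko and 1790, 1749 and 2237 in wt at 1 month, with 2134 to 2392 in ko and 1735 to 2205 in wt at 4 months. For 11 keratinocyte and hair follicle genes it was 572 to 736 in ko and 1085, 864 and 742 in wt at 1 month, and 759 to 955 in ko and 903 to 1292 in wt at 4 months. Neither sum was higher in the 2 mice with high Dct than in the rest. Mbp, at 825 to 1462, was the largest term of the glial sum, so genes of low signal weighed little in it. Foxd3 was at 76.4 and 32.8 in those mice and at or below 26.3 elsewhere. S100b was at 53.9 to 65.7 in wt at 1 month and at or below 41.4 elsewhere. The other glial genes, by the probe sets summed, did not have those 2 mice as their 2 highest arrays. Krt14 and Krt15, defining keratins of the basal epidermis and hair follicle, were at 75.3 and 5.61 in wt replicate 2 at 1 month, and at 8.58 and 3.89 in replicate 3. Krt5, the partner of Krt14, was at 130 in wt replicate 2, its highest of the 12 arrays, and at 89.4 in replicate 3, with 36.9 to 120 in the other 10 arrays.

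The retinal pigment epithelium also makes melanin with these enzymes. Its 7 markers summed to 425 to 598 in ko and 695, 1489 and 809 in wt at 1 month, and to 859 to 1026 in ko and 925 to 1935 in wt at 4 months. Replicate 2 of wt at 1 month was the highest array for Rpe65, the visual cycle isomerase, at 135, against 32.8 at most elsewhere, and had 332 for Ttr, a transport protein. Ttr was higher still, 955, in wt replicate 3 at 4 months, where Dct was at 52.5. In wt replicate 3 at 1 month Rpe65 was at 21.8, and Rgr and Rlbp1, a further pair of its markers, were at or below 16.3 in both mice. Best1, a chloride channel, was at 23.1, 28.7 and 26.1 in wt replicates 1 to 3 at 1 month and at 7.69 to 14.8 in the other arrays. It was thus higher in all wt mice of that age, including replicate 1, but far under 100. Lrat, which esterifies retinol, was at 840 in replicate 2, the highest at 1 month, but reached 1034 in wt at 4 months. Rdh5, the remaining marker, was at 70.1, 142 and 124 in wt replicates 1 to 3 at 1 month and at 81.7 to 109 in ko. It was thus highest at that age in the 2 mice with high Dct, but reached 155 in wt at 4 months. Smooth muscle genes, a mark of capsule and trabeculae, summed to 8752 to 10212 in ko and 8920, 8259 and 11164 in wt at 1 month, and to 10661 to 13028 in ko and 13648 to 16942 in wt at 4 months. For 7 mesothelial genes the sum was 743 to 855 in ko and 862, 976 and 1252 in wt replicates 1 to 3 at 1 month. At 4 months it was 902 to 1421 in ko and 948 to 1441 in wt. Among the arrays at 1 month it was thus highest in wt replicates 2 and 3, but sums at 4 months reached higher. None of these lists had a called gene in either genotype comparison.

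**Figure D5:**
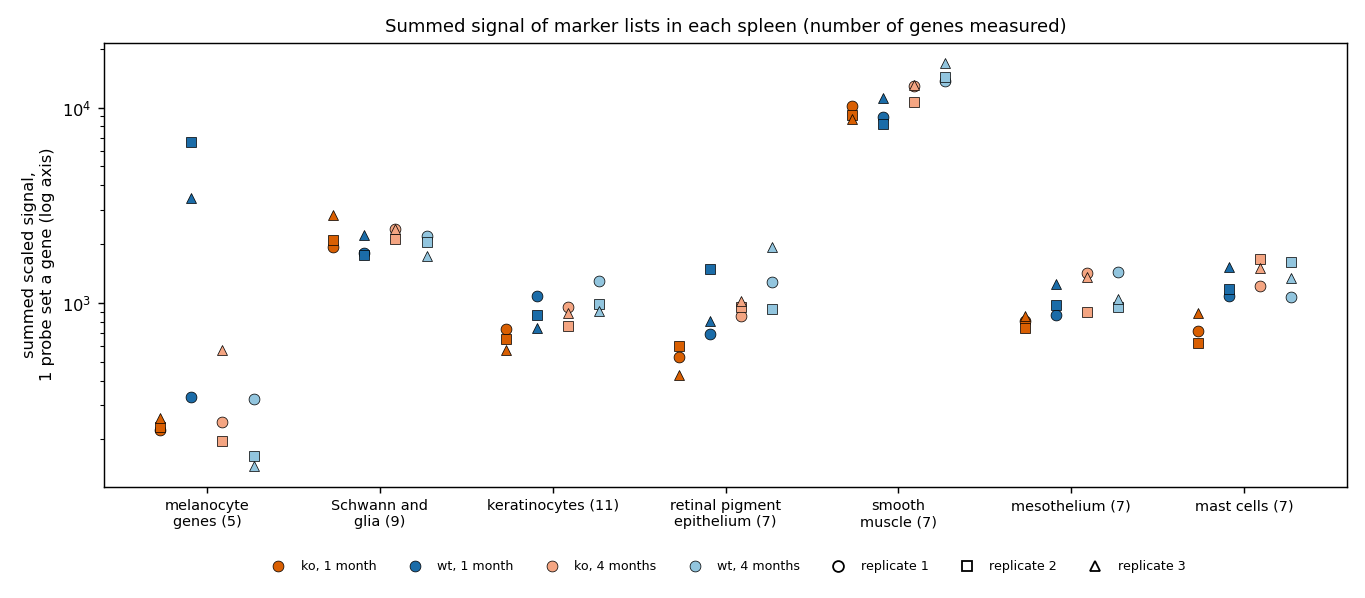
Summed scaled signal (log axis) of each marker list in each spleen, with the number of genes measured, colour for the group and shape for the replicate number. The melanocyte genes stand at 6640 and 3450 in wt replicates 2 and 3 at 1 month and at 571 or less elsewhere, while no other list shown separates those 2 arrays from the rest.

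Pancreas, adipose and skeletal muscle genes, from tissues beside the spleen or around it, had 0 genes called in limma at either age. Pancreas genes summed to 1326 to 1540 in ko and 1366 to 1530 in wt at 1 month, and to 2187 to 2554 in ko at 4 months. In wt at 4 months they reached 154631 in replicate 2, an array in which all 9 melanocyte probe sets were under 100. Adipose genes summed to 558 to 2500 in ko and 621, 2333 and 4431 in wt replicates 1 to 3 at 1 month, and to 3651 to 9293 in ko and 3216 to 10373 in wt at 4 months. Among wt mice at 1 month they were thus higher in the 2 mice with high Dct than in replicate 1, as were Car3, an enzyme of fat cells (95.4, 1402 and 2360), and Adipoq, which encodes adiponectin (14.2, 181 and 389). In ko at that age, replicate 1 had 2500, and most sums at 4 months were higher still, where Dct was low. The part of these cells in the melanocyte signal was not tested. Skeletal muscle genes lay between 323 and 611 in all arrays.

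Mast cells, like melanocytes, depend on Kit and Mitf. Of 7 mast cell probe sets tested, for 6 of the 7 genes measured, 3 were called at 1 month, beside 0.444% of all probe sets tested. Mcpt4, a mast cell protease, had 26.8, 17.9 and 16.4 in ko and 320, 311 and 424 in wt, a difference of -2.87 (SE 0.26, limma adjusted p = 5.17e-05). Cpa3, carboxypeptidase A3, had 132, 138 and 146 in ko and 371, 275 and 347 in wt, and fell by 1.08 (SE 0.19, limma adjusted p = 0.0152). Hdc, the histamine-forming enzyme, which basophils and other myeloid cells also make, had 240, 178 and 373 in ko and 16.6, 17.5 and 19.0 in wt, and rose by 2.52 (SE 0.42, limma adjusted p = 0.00986). Unlike the melanocyte genes, Mcpt4 and Cpa3 were at like levels in all 3 wt mice of that age, including replicate 1. The array set was partly tied to genotype at 1 month. With it as a block, 45 of all probe sets were called at that age, against 120 without. Whether the mast cell calls hold with that block is not given here. The other mast cell genes were not called: Tpsb2, a tryptase, had 3.59, 16.9 and 60.04 in ko and 13.0, 61.8 and 257 in wt, lowest in replicate 1.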

How the data were processed

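Total RNA from 12 spleens was hybridised to Affymetrix arrays. The authors deposited 1 linear intensity for each probe set, computed with MAS5 per the submitters' processing notes, which give no version. MAS5 subtracts background, so low values are imprecise. Every array was scaled here to a mean of 500 after trimming 2% at each end. Control probe sets (64) were left out. Symbols came from the platform annotation; 34945 probe sets had 1 symbol, 932 several and 9160 none.

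After an offset of 32 and a log2 transform, probe sets with a signal of at least 100 in at least 3 arrays were tested (27041) with limma 3.58.1 in R 4.3.3 (lmFit, then eBayes with an intensity trend, 4 group means, 8 residual and 8.27 prior degrees of freedom), with Benjamini-Hochberg adjustment over all tested, 2-sided, called under 0.05. The labels call the arrays separate replicates of a group, 1 mouse each per the design. The number of arrays limits precision. The model was tested on simulated data.

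The 5 genes, the marker lists and the alternatives were chosen with earlier results of these data known. Genes were named by rule: the 5 genes; the 5 most alike to Tyrp1 and to Dct; called genes of the lists; and pigment genes peaking at least 4-fold above their median array with a signal of at least 200. Other genes named (Mitf, Sox10, Mc1r, Gpr143, Oca2, Slc45a2, Pax3, Mbp, Foxd3, S100b, Krt5, Krt14, Krt15, Rpe65, Ttr, Rgr, Rlbp1, Best1, Lrat, Rdh5, Car3, Adipoq and Tpsb2) were chosen after their values were seen. Alternatives covered normalization, offset, filter, prior variance, array weights, a block for replicate number or for array set (6 arrays of low and 6 of high maximum signal), the groups fitted and each array left out. Promoter windows were read from RefSeq, GRCm38.p6.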

Additional observations from a re-analysis of the deposited data

Results flagged for a closer look

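The genotype effect on Mcpt4, the mast cell protease, differed between the ages: ko minus wt at 4 months exceeded ko minus wt at 1 month by a log2 of 3.18 (SE 0.37, limma adjusted p = 0.00596). Its signal at 4 months was 245, 430 and 341 in ko, against 170, 360 and 279 in wt.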

How the results depend on the processing

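The counts below are of all probe sets called in limma. At 1 month (120 with the settings used) there were 77 with no filter, 68 with no intensity trend, 45 with the array set as a block, 47 with only the groups compared and 36 to 1590 with 1 array left out. Without wt replicates 2 and 3, chosen after the data were seen, there were 685. At 4 months (621) there were 248 with no trend, 362 with only the groups compared and 161 to 991 with 1 array left out. For the difference between the ages (13) there were 8 with no filter, 1 with no trend, 30 with array weights, 196 without wt replicates 2 and 3 and 5 to 92 with 1 array left out. With age, there were 3680 with array weights, 3186 with only the groups compared and 3492 to 6375 with 1 array left out in wt (5795), and 11052 with array weights and 3653 to 5332 with 1 array left out in ko (6187). The cause was not tested.

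Of the melanocyte genes, 0 were called between ko and wt at 4 months under any alternative, with nearly all signals low. Few calls were possible there, and nothing is read from this count. For Tyrp1 1439409_x_at, leaving out 1 array gave -0.20 (without ko replicate 3) to 0.70 between ko and wt at 4 months, and -0.05 to 0.86 between ages in ko. For Tyr 1417717_a_at the age difference in ko was -0.11 with the array set as a block. With the replicate number as a block (replicate block), 109 were called at 1 month, 563 at 4 months, 14 for the difference between the ages, 5470 with age in wt and 5840 with age in ko. Same-numbered arrays did not deviate together (r from -0.20 to 0.13). The low signals of these genes and 3 arrays a group limit what can be seen.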
